A study of Mus musculus with 10 samples.

Results

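T cell receptor variable (V) genes were followed in spleens from mice with serum-induced arthritis. Members were the rows of the gene table with the biotype TR_V_gene, 144 of 54532 genes. By symbol they were 108 Trav genes of the alpha chain, 22 Trbv genes of the beta chain, 7 gamma-chain V genes (Trgv2 and the genes named Tcrg-V) and 5 Trdv genes of the delta chain. C920008G01Rik and B230359F08Rik carried the biotype but no chain symbol and entered no chain total. Bulk RNA of whole spleen was measured in 5 DUSP6 KO mice, which lacked the MAP kinase phosphatase DUSP6 (GEO's labels call the same genotype a knockdown), and 5 wild-type C57BL/6 (WT) mice. All 10 animals, aged 8 to 12 weeks, had received 100 µL of arthritogenic serum from KRN x NOD mice intraperitoneally on days 0 and 2, and spleens were taken on day 9. There was no group without arthritis, the deletion was not limited to a cell type, and males and females were used without a sex given per spleen. The study lists the DUSP6 KO and the C57BL/6J WT mice as purchased strains and describes no littermate controls. Genotype therefore cannot be told apart from mouse line. Spleens are named here by group and animal number.

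T cells recognise antigen through a receptor of paired alpha and beta chains or, in a smaller lineage, gamma and delta chains. Each chain is made by RAG-driven joining of a V gene to J (and, for beta and delta, D) segments, which the alpha locus can repeat within a cell, after which the V exon is spliced to a constant region. A T cell clone mainly transcribes its own rearranged V genes, so the V gene RNA of a whole spleen sums over many clones. Serum transfer brings antibodies and not the KRN T cells, so the receptors measured were those of the recipients. In bulk RNA, fewer T cells and less receptor RNA per cell cannot be told apart.

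The 3 prime end of a V gene encodes the start of the antigen-contacting CDR3 loop, which opens at a conserved cysteine. The last 60 bases of the annotated transcripts of 5 beta-chain genes on which the results turn are shown, taken from GENCODE M21 on GRCm38, with the TGT codon of that cysteine in capitals. Trbv13-2, Trbv16 and Trbv12-2 were the most used, Trbv26 had the lowest p in the comparison, and Trbv19 is the V gene of the KRN transgenic receptor.
Trbv13-2: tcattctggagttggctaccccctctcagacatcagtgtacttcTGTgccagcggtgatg
Trbv16: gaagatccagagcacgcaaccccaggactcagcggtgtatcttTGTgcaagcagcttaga
Trbv12-2: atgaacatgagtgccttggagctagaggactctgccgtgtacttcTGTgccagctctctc
Trbv26: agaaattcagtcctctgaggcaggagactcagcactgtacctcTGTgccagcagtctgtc
Trbv19: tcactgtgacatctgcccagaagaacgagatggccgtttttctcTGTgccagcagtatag
Over their last 250 bases the 22 Trbv genes were each at most 91.2% identical to their nearest relative.

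Trav genes were different, because the alpha locus of the GRCm38 reference (C57BL/6J) holds repeated blocks whose genes carry the letters d or n beside an unlettered gene (34 d, 28 n and 46 unlettered genes). Of the 108 Trav genes, 34 had a copy with an identical last 250 bases and 36 more had one within 1 to 5 differences. The last 120 bases of the Trav14-3 trio and the last 80 of the Trav4-3 trio are shown, with capitals where a copy differs from the first line, since both trios enter the comparison below.
Trav14-3: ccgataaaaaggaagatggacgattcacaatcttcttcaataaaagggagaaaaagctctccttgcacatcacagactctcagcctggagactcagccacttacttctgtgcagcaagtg
Trav14n-3: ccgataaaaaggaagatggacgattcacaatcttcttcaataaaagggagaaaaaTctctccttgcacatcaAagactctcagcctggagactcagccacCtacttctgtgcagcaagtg
Trav14d-3-dv8: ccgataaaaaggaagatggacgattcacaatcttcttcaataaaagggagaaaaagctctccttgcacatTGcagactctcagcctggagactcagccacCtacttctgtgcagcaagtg
Trav4-3: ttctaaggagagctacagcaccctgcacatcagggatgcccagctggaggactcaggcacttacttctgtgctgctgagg
Trav4n-3: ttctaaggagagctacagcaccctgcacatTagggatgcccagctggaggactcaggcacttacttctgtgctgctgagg
Trav4d-3: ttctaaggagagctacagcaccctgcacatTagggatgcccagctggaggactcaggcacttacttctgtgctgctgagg
Only 3 bases of the 120 separate Trav14-3 from either copy, and the 2 lettered Trav4-3 copies do not differ from each other over the 80 bases shown. The 34 Trav genes with an identical copy had a median of 3 reads over all 10 libraries and 13 of them had none. The 36 genes with 1 to 5 differences had a median of 32 reads, and the 38 genes with 6 or more differences from their nearest relative one of 25.5. Values of Trav genes with an identical copy are uncertain, since the counting of reads that match several copies is not given in the sources used here and was not tested.

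Libraries held 14990474 to 19822673 reads in genes, of which 510 to 1158 lay in V genes. Trbv genes took 342 to 799 reads per library, Trav genes 131 to 354, gamma V genes 14 to 98 and Trdv genes 12 to 33. A V read was seen in 126 of the 144 members, 29 were detected in all 10 spleens and 18 had no read in any. A count of 0 in a library allows up to 3 reads, and floors and intervals given here cover counting error only. Dusp6 itself lay between 0.308 and 0.624 FPKM (fragments scaled to gene length and library size) in the DUSP6 KO spleens and between 16.6 and 24.0 FPKM in WT. WT 67 held reads of pancreatic trypsinogens whose genes lie within the beta locus (Prss2 at 1877 FPKM, against 25.0 in WT 65 and at most 0.296 in the other spleens), so the beta sum, evenness and Trbv26 are also given without it.

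No V gene separated the genotypes. Of the 144 members, 100 passed a mean of 0.1 FPKM and were tested with limma on log2(FPKM + 0.1), and 9 of them (9.00%) had an unadjusted p under 0.05, where 5.66% of all 21296 genes tested did. The 4 higher in DUSP6 KO (2.62% of all genes were) were Trav4-3, Trav15-1-dv6-1, Trav11d and Tcrg-V6. The 5 lower (3.03% of all genes were) were Trbv26, Trav14-3, Trbv23, Trav8-1 and Trav16n. None had a limma adjusted p of 0.05 or less (0.0704% of all genes did), the lowest being 0.45 for Trbv26, and limma voom on the recovered reads also found 0, with 5 at an unadjusted p under 0.05. The 5 and 5 FPKM values overlapped for each of the 100 V genes tested, where 1.11% of all genes tested did not overlap. A share that low does not set the V genes apart, and the members below the minimum, with few or no reads, overlapped too. The median log2 fold change of the 100 was 0.16 beside -0.0046 for all genes tested. Setting the 7 genes read in 1 group only at a floor of 3 reads in the other group left it at 0.16. They kept their side of the median, so this could not move it. The median standard error was 0.69 for the V genes and 0.23 for all genes. The number at an unadjusted p under 0.05 rested on single spleens: it was 7 higher and 3 lower without DUSP6 KO 73, 3 higher and 2 lower without DUSP6 KO 21, 2 and 4 without DUSP6 KO 01, 2 and 3 without WT 65, and 2 and 4 without WT 77.

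**Figure D1:**
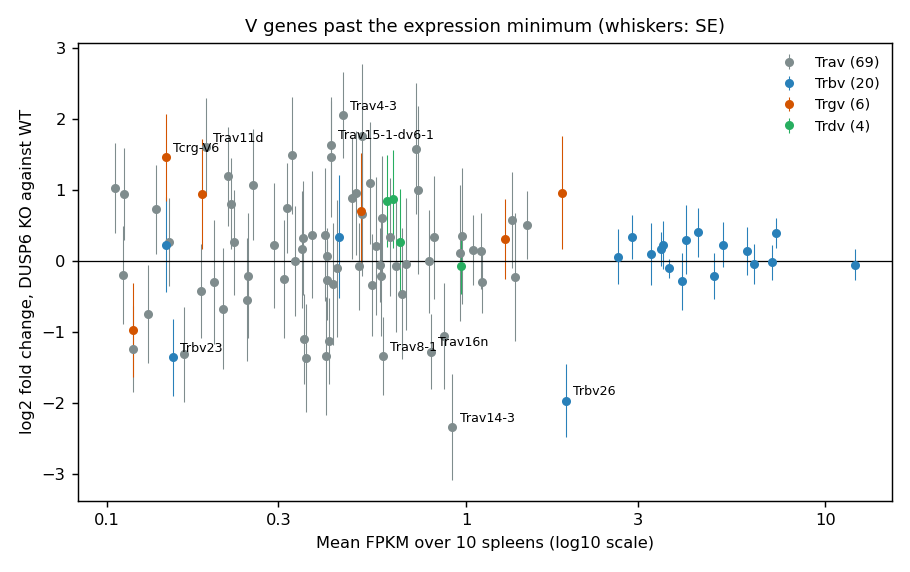
Log2 fold change of the V genes tested (DUSP6 KO against WT, on the log2(FPKM + 0.1) scale, whiskers are standard errors) against their mean FPKM over the 10 spleens on a log axis, coloured by chain, with the 9 genes at an unadjusted p under 0.05 named. Most Trbv genes lie to the right with short whiskers and near 0, except for Trbv26 at -1.97 and the low Trbv23 at -1.36, and Trav genes scatter widely below 1 FPKM.

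The beta-chain genes, which lie on chromosome 6 between 40891229 and 41558452, were the most highly expressed V genes per length. Of the 22 genes, 17 averaged 1 FPKM or more, against 6 of the 108 Trav genes. Trbv13-2, a V gene of many conventional and natural killer T (NKT) cell receptors, led in usage. Its share of summed Trbv FPKM was 15.1, 12.5, 13.7, 14.1 and 14.4% in DUSP6 KO 26, 21, 73, 01 and 03 and 22.4, 11.8, 16, 13.0 and 12.9% in WT 65, 67, 73, 77 and 83. The DUSP6 KO spleens lay inside the WT range, and only WT 65 rose above 20% of FPKM. Counted in reads, which are not scaled to gene length, Trbv13-2 took 103 of 525 beta reads in WT 65 (19.6%, 95% exact Clopper-Pearson interval 16.3 to 23.3%). Its level was 11.9 ± 3.49 FPKM in the DUSP6 KO spleens and 12.3 ± 3.24 in the WT spleens (mean and SD of 5 each), which differed by -0.05 ± 0.21 (SE) on the log2 scale.

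Trbv16 and Trbv12-2 followed. Trbv16 took 9.80 ± 1.68% of the beta signal in DUSP6 KO and 7.73 ± 1.84% in WT, and its FPKM gave a log2 fold change of 0.39 ± 0.21. DUSP6 KO 73 had the highest Trbv16 share at 12.5% and WT 77 the lowest at 5.46%. Trbv12-2 took 8.41 ± 2.24% and 8.60 ± 1.43%. Trbv1 and Trbv29, which with Trbv13-2 supply the beta chains of most mouse NKT cells, took 7.40 ± 2.41% and 4.4 ± 1.18% in DUSP6 KO and 7.59 ± 1.05% and 3.98 ± 1.62% in WT. Trbv19 took 4.30 ± 1.63% in DUSP6 KO, where DUSP6 KO 73 was lowest at 1.60%, and 5.06 ± 0.825% in WT. The differences between the groups in these shares were smaller than the larger of the group SDs, except for Trbv16.

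Trbv26 gave the lowest p of any V gene. Its FPKM was 0.438, 0.981, 2.23, 0.503 and 0.164 in DUSP6 KO 26, 21, 73, 01 and 03, and 2.07, 4.14, 2.05, 2.29 and 4.11 in WT 65, 67, 73, 77 and 83. The DUSP6 KO spleens other than 73 lay below every WT spleen, and DUSP6 KO 73, at 2.23 FPKM, lay within the WT values. Its log2 fold change was -1.97 ± 0.51 (SE), with an unadjusted limma p of 0.0028 and an adjusted p of 0.45. Adjusted p ranged from 0.12 without DUSP6 KO 73 to 0.95 with FPKM scaled to the CD3 genes, so no alternative brought it past the threshold, and without WT 67 the log2 fold change was -1.83 ± 0.55 (adjusted p 0.68). In reads it was 1 of 799 beta reads in DUSP6 KO 03 (0.125%, exact interval 0.0032 to 0.695%) and 12 of 342 in DUSP6 KO 73 (3.51%, 1.83 to 6.05%), against 13 to 29 reads and 2.48 to 4.08% in the WT spleens. Trbv26 (ENSMUSG00000076479) spans 41227505 to 41227993 on the plus strand of chromosome 6 (GRCm38). Trbv23 and Trbv29 are its neighbours in the plot of beta usage. Trbv23 had 1 read in all DUSP6 KO spleens and 8 in all WT spleens (log2 fold change -1.36 ± 0.54, adjusted limma p 0.79), and Trbv29 was at 3.79 ± 1.64 and 3.26 ± 1.53 FPKM.

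**Figure D2:**
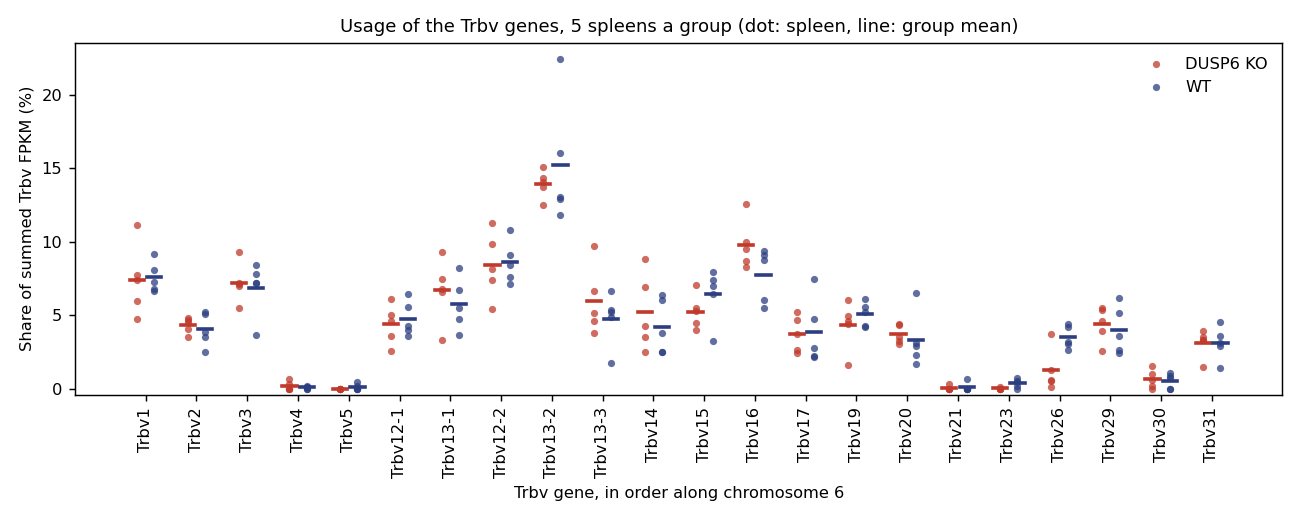
Share of summed Trbv FPKM (%, y axis) taken by each of the 22 Trbv genes, ordered along chromosome 6 (x axis), with a dot per spleen and a line at the mean of the 5 DUSP6 KO and 5 WT spleens. Trbv13-2 stands highest in both groups, and at Trbv26 the DUSP6 KO mean (1.24%) lies below the WT mean (3.49%) with DUSP6 KO 73 among the WT dots.

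Whole beta profiles were compared pair by pair. The share of the beta signal that would have to move between genes to turn 1 spleen's usage into another's (Bray-Curtis distance) had a median of 0.158 within DUSP6 KO (10 pairs), 0.173 within WT (10 pairs) and 0.160 between the groups (25 pairs). For Trav the same medians were 0.536, 0.536 and 0.548. The between-group median lay within 0.02 of the within-group medians in both chains, and Trav distances, on fewer reads spread over more genes, were the larger. Spleens are separate animals, and their spread holds more than counting: for genes with at least 5 reads on average, the variance of reads within a group was a median of 2.14 (DUSP6 KO) and 2.41 (WT) times that of counting in Trbv, and 3.73 and 3.43 times in Trav.

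Trav genes, on chromosome 14 between 52427928 and 53977678, were low and numerous. The 3 with the largest mean shares were Trav7-4, Trav14n-3 and Trav3-3, at 4.34 ± 1.43%, 4.90 ± 5.13% and 3.49 ± 0.641% of the alpha signal in DUSP6 KO and 3.97 ± 3.03%, 3.34 ± 2.26% and 3.67 ± 3.38% in WT. Trav14n-3 ranged from 0 FPKM in DUSP6 KO 21 to 4.01 in DUSP6 KO 26, a wider range than in WT (0.500 to 2.27). No Trav gene held as much as 12% of the alpha signal in a spleen, the highest being Trav12-2 at 11.1% in DUSP6 KO 73.

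Trav4-3 had the lowest p among Trav genes. It was at 0.913, 0.250, 0.498, 0.561 and 1.61 FPKM in DUSP6 KO 26, 21, 73, 01 and 03, and at 0, 0, 0, 0.293 and 0.407 in WT 65, 67, 73, 77 and 83. All 5 DUSP6 KO spleens had reads (28 in all) and 3 of the 5 WT spleens had none (5 in all), while the values of DUSP6 KO 21 overlapped those of WT 77 and WT 83. The log2 fold change was 2.05 ± 0.60, with an unadjusted limma p of 0.0063 and an adjusted p of 0.56. Its size depended on the processing and ran from 0.60 to 3.95 over the alternatives that kept all spleens. Trav4n-3 and Trav4d-3 added no reads, so the trio gave the same values. These 2 copies are identical over their last 250 bases, and how reads matching both were counted is not given. The trio sum is therefore no check on Trav4-3. Trav15-1-dv6-1, one of the 10 Trav genes that can also join delta segments, had the next lowest p of the Trav genes higher in DUSP6 KO, with 26 reads there and 5 in WT (log2 fold change 1.63 ± 0.62, adjusted limma p 0.79).

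Trav14-3 was at 0.279, 0, 0, 0.120 and 1.57 FPKM in DUSP6 KO 26, 21, 73, 01 and 03, and at 2.59, 0.546, 0.906, 1.25 and 1.89 in WT 65, 67, 73, 77 and 83. DUSP6 KO 03 lay among the WT spleens and the other DUSP6 KO spleens lay below all of them (log2 fold change -2.34 ± 0.74, adjusted limma p 0.64). The 3 near-identical copies printed above summed to 3.21 ± 2.28 FPKM in DUSP6 KO and 3.304 ± 1.43 in WT, within the spread of either group. Another lower gene was Trav8-1 (-1.34 ± 0.55, adjusted p 0.82), which differs from Trav8d-1 at 1 of 250 bases: the pair summed to 1.36 ± 1.10 FPKM in DUSP6 KO and 1.29 ± 0.884 in WT. Trav16n was alone at 0.424 ± 0.303 FPKM in DUSP6 KO and 1.17 ± 0.594 in WT (-1.28 ± 0.53, adjusted p 0.82), and the trio of Trav16 copies stood at 1.41 ± 0.732 and 2.08 ± 1.20. None of these 3 genes passed the adjusted threshold in limma.

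The share of lettered genes varied between spleens. The labels give no strain or backcross detail per DUSP6 KO animal, no littermate controls are described, and all spleens were read against 1 reference. How far these values depend on mouse line and on the copies an animal carries was not tested. Genes with the letter d gave 11.9, 44.3, 10.7, 20.8 and 24.4% of the alpha signal in DUSP6 KO 26, 21, 73, 01 and 03, and 17.3, 15.8, 13.0, 9.06 and 13.8% in WT 65, 67, 73, 77 and 83. DUSP6 KO 21 stood apart and DUSP6 KO 01 and 03 were also above the WT range, while DUSP6 KO 26 and 73 lay inside it. In reads the d genes of DUSP6 KO 21 were 123 of 286 (43.0%, exact interval 37.2 to 49.0%), above the 8.79 to 17.3% of the WT spleens. Of the 15 d genes past the expression minimum, 6 were highest in DUSP6 KO 21, beside 4 of 41 unlettered and 1 of 13 n genes. This count uses the same reads as the d share and adds no support to it. The 6 d genes included Trav8d-1 with 22 reads there and at most 11 elsewhere, Trav9d-1 with 18 and at most 5, and Trav7d-4 with 19 and at most 10. The group difference, 8.63 ± 6.21 percentage points (SE), was 3.16 without DUSP6 KO 21. Genes with the letter n gave 10.1 to 19.9% in DUSP6 KO and 11.5 to 18.7% in WT. Leaving out the Trav genes with an identical copy gave 44.2% for d genes in DUSP6 KO 21 and 9.22 to 17.1% in WT.

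**Figure D3:**
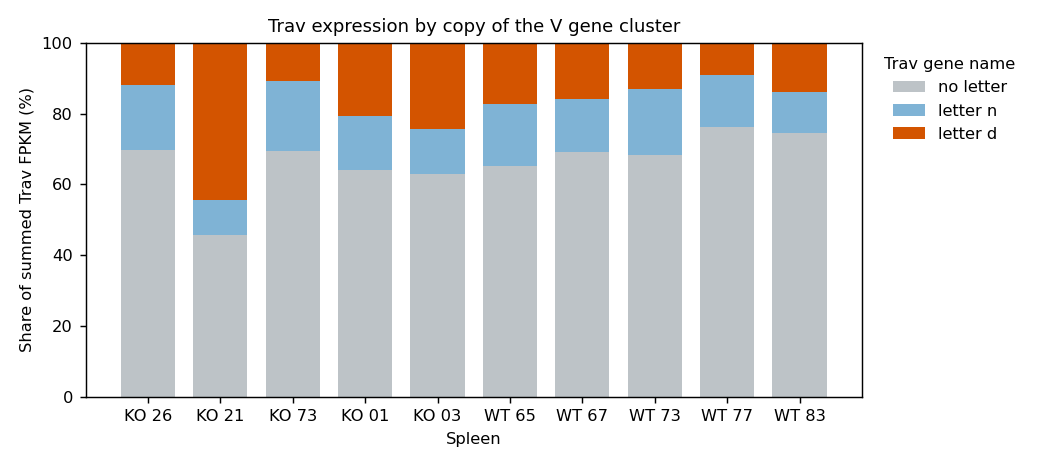
Stacked share of summed Trav FPKM (%, y axis) in each of the 10 spleens (x axis), split into genes without a letter, with the letter n and with the letter d. The d part is 44.3% in DUSP6 KO 21, 20.8 and 24.4% in DUSP6 KO 01 and 03, and 9.06 to 17.3% in the WT spleens.

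V genes of innate-like T cells were near the limit of detection. Trav11 and Trav11d supply the alpha chain of invariant NKT cells, and Trav1 that of mucosal-associated invariant T (MAIT) cells. Trav11d had 13 reads in DUSP6 KO (6 in DUSP6 KO 21, 6 in DUSP6 KO 01 and 1 in DUSP6 KO 03) and 0 in all WT spleens. Its pooled level in the DUSP6 KO spleens was 4.20 times a floor of 3 reads over the WT group. This ratio takes the 13 reads as exact and is not a lower bound. The limma log2 fold change of 1.60 ± 0.69 had an adjusted p of 0.85, and 2 DUSP6 KO spleens were at 0. Trav11 had 1 read in all (DUSP6 KO 21), and Trav1 had 1 read in DUSP6 KO 01 and 1 in WT 73. Transcripts of the NKT marker list were measured in both groups: Zbtb16, the transcription factor PLZF of NKT cells, was at 0.504 ± 0.0604 FPKM in DUSP6 KO and 0.566 ± 0.289 in WT. None of the 5 genes of that list had an unadjusted p under 0.05.

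Gamma and delta V genes were sparse. The gamma V genes lie on chromosome 13, and summed to 5.75, 12.3, 3.04, 3.84 and 2.60 FPKM in DUSP6 KO 26, 21, 73, 01 and 03, against 1.99, 4.41, 2.96, 2.26 and 1.83 in WT 65, 67, 73, 77 and 83. DUSP6 KO 21 was the highest and 3 of the other DUSP6 KO spleens lay within the WT range. The difference of the mean log2 values was 0.86 ± 0.46 (SE), and 0.51 without DUSP6 KO 21. Tcrg-V1, a major V gene of splenic gamma-delta T cells, had the largest difference in mean FPKM among them: it was at 7.15 FPKM in DUSP6 KO 21, 0.365 to 3.09 in the other DUSP6 KO spleens and 0.156 to 2.10 in WT. Trgv2 was at 1.58 ± 1.33 FPKM in DUSP6 KO and 0.976 ± 0.484 in WT, and Tcrg-V4 at 0.673 ± 0.690 and 0.345 ± 0.390. Tcrg-V6, the V gene of a fetal, interleukin-17-producing lineage, had 11 reads from 3 DUSP6 KO spleens and 0 in WT (3.55 times a floor of 3 WT reads, adjusted limma p 0.84). Tcrg-V3 went the other way, with 0 reads in DUSP6 KO and 7 in 2 WT spleens, 6 of them in WT 77 (2.41 times a floor of 3 DUSP6 KO reads). Both ratios take the reads seen as exact and are not lower bounds. Of the 6 gamma V genes tested, 5 had a positive log2 fold change, where the median over all genes tested was -0.0046. The 6 share the same spleens. Tcrg-V6 passed the expression minimum through DUSP6 KO reads alone and Tcrg-V3 through WT reads alone, which fixed their signs. The count is therefore no support for a shift.

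The 5 Trdv genes summed to 3.26 ± 1.06 FPKM in DUSP6 KO and 2.50 ± 0.770 in WT, a log2 difference of 0.38 ± 0.29. Trdv2-2 had the largest mean share, which ran from 12.8 to 55.3% in DUSP6 KO and from 24.9 to 65.3% in WT. Trdv5, which lies inverted downstream of the delta constant gene, had the lowest p of the delta genes, at 0.796 ± 0.621 FPKM in DUSP6 KO and 0.408 ± 0.295 in WT (log2 fold change 0.84 ± 0.65, adjusted limma p 0.97). These sums rest on 12 to 33 delta reads per library, and the difference lay within the spread between spleens.

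Summed over the alpha and the beta chain, V gene expression did not separate the groups. Trav genes summed to 39.8, 37.3, 23.0, 42.0 and 47.0 FPKM in DUSP6 KO 26, 21, 73, 01 and 03, against 32.2, 41.2, 34.2, 28.2 and 34.1 in WT 65, 67, 73, 77 and 83. Trbv genes summed to 84.5, 78.8, 60.1, 82.0 and 121.1 FPKM, against 79.0, 94.1, 67.1, 72.0 and 97.9. In both chains DUSP6 KO 73 was the lowest spleen and DUSP6 KO 03 the highest, with the WT spleens between them. The log2 differences were 0.13 ± 0.20 for Trav and 0.04 ± 0.19 for Trbv, each within the spread between spleens. Without WT 67 the Trbv difference was 0.09.

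**Figure D4:**
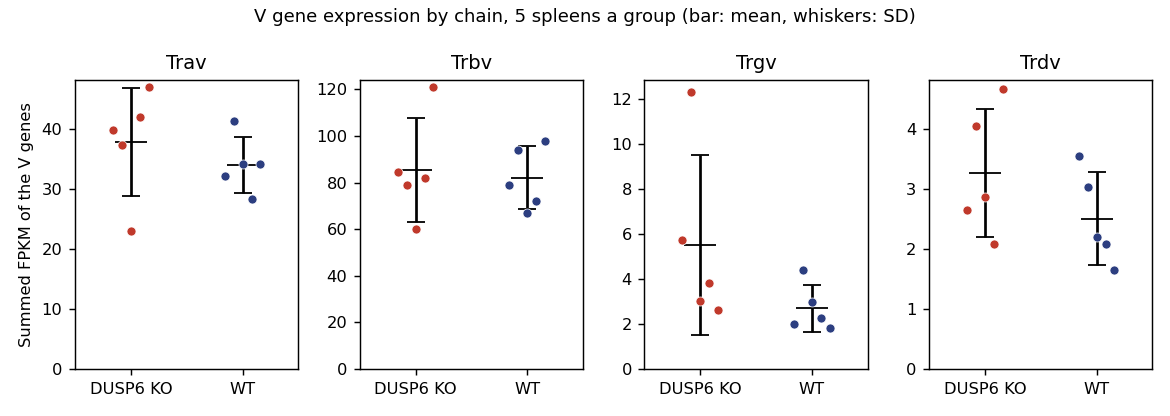
Summed FPKM of the V genes of each chain (y axis, its own scale in each panel) in 5 DUSP6 KO and 5 WT spleens, a dot per spleen, with the group mean as a bar and the SD as whiskers. The groups overlap in all 4 chains, and the highest gamma value is DUSP6 KO 21 at 12.3 FPKM.

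Evenness, the Shannon entropy of the V gene shares divided by its maximum for the V genes read in a chain, is 1 when all genes are used equally and falls when a few dominate. Trbv evenness was 0.881, 0.891, 0.877, 0.870 and 0.871 in DUSP6 KO 26, 21, 73, 01 and 03, and 0.842, 0.893, 0.889, 0.911 and 0.891 in WT 65, 67, 73, 77 and 83. The DUSP6 KO values fell in a narrower band (SD 0.0083 against 0.0257) inside the WT range, and WT 65, with its large Trbv13-2 share, was lowest. The difference was -0.0077 ± 0.0121 (SE), and -0.0058 ± 0.0151 without WT 67. In effective numbers (inverse Simpson), 13.3 ± 0.316 equally used Trbv genes would give the DUSP6 KO profile and 13.4 ± 1.88 the WT profile. Trav evenness was 0.804 ± 0.0612 in DUSP6 KO and 0.797 ± 0.0288 in WT, a difference of 0.0069 ± 0.0303. DUSP6 KO 73, the spleen with the fewest alpha reads, was least even at 0.726. After all spleens were thinned to 131 alpha reads, its value was 0.725 and the group means were 0.777 and 0.773. Evenness of gamma (0.555 ± 0.155 and 0.519 ± 0.120) and delta V genes (0.745 ± 0.0417 and 0.717 ± 0.0875) rested on few reads (14 to 98 and 12 to 33 per library) and did not separate the groups.

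**Figure D5:**
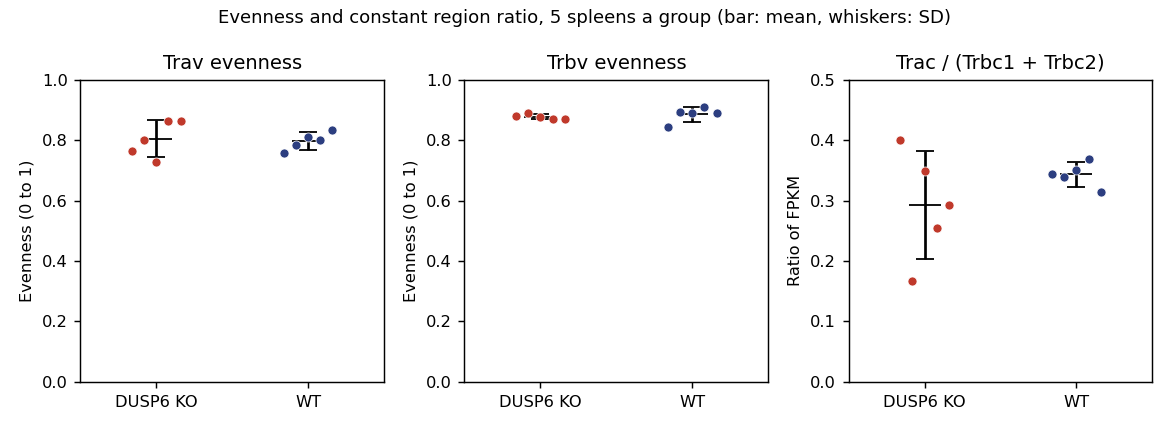
Evenness of Trav and Trbv usage (y axis, 0 to 1) and the ratio of Trac to summed Trbc1 and Trbc2 FPKM in 5 DUSP6 KO and 5 WT spleens, a dot per spleen, with the group mean as a bar and the SD as whiskers. Evenness overlaps between the groups, and the Trac ratio runs from 0.167 to 0.400 in DUSP6 KO and from 0.314 to 0.370 in WT.

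The constant regions, to which the V exons are spliced, and the CD3 chains, which carry the receptor's signal, gave deeper counts. Trbc1 and Trbc2, the beta constant genes, were at 62.8 ± 17.7 and 121.5 ± 35.6 FPKM in DUSP6 KO and at 62.5 ± 9.24 and 117.1 ± 20.8 in WT. Trac, the alpha constant gene, was at 82.4, 33.1, 36.1, 42.9 and 71.9 FPKM in DUSP6 KO 26, 21, 73, 01 and 03, and at 62.2, 68.6, 58.7, 50.7 and 66.1 in WT 65, 67, 73, 77 and 83. DUSP6 KO 21, 73 and 01 lay below the WT range, and DUSP6 KO 26 and 03 above it. Divided by Trbc1 and Trbc2, Trac was 0.400, 0.167, 0.349, 0.255 and 0.293 in those DUSP6 KO spleens and 0.314 to 0.370 in WT. Trav FPKM per Trac FPKM was 0.483 to 1.13 in DUSP6 KO and 0.516 to 0.601 in WT, highest in DUSP6 KO 21. Alpha V genes thus did not follow the low Trac of DUSP6 KO 21, where the Trav sum was 37.3 FPKM. The 4 CD3 genes summed to 50.6 ± 13.6 FPKM in DUSP6 KO and 49.1 ± 6.48 in WT.

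The gamma constant gene Tcrg-C4 was the one member of the 12-gene receptor complex list with an unadjusted limma p under 0.05, where 5.66% of all genes tested had such a p. It was at 4.35, 9.29, 3.95, 3.37 and 4.35 FPKM in DUSP6 KO 26, 21, 73, 01 and 03, and at 2.37, 2.55, 2.30, 1.95 and 3.29 in WT 65, 67, 73, 77 and 83. Each DUSP6 KO value exceeded each WT value, as was so for 0.549% of all genes tested. The log2 fold change was 0.92 ± 0.25 with a limma adjusted p of 0.50, and the two-sided exact permutation p was 0.0079, the smallest that 5 against 5 allows and 1 of 12 such tests on the list. Tcrg-C4 lies next to Tcrg-V1 on chromosome 13. Trdc, the delta constant gene, was at 2.42 ± 1.08 and 1.65 ± 0.967 FPKM, and Tcrg-C1 and Tcrg-C2 overlapped between the groups.

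Genes that work beside the receptor were read from lists. Of 19 genes of receptor signalling, among them Cd4, Cd8a, Lck, Zap70 and Lat, 0 had an unadjusted limma p under 0.05 in either direction, and their median change was 0.03 on the log2 scale (-0.0046 over all genes tested). Of the 11 genes of V(D)J recombination, 8 were tested and 1 had such a p, where 5.66% of all genes tested did. It was the DNA end-binding gene Xrcc5 (log2 fold change 0.21, unadjusted limma p 0.0439, adjusted p 0.86). Rag1, which cuts DNA at V genes, was below the expression minimum, at 0.0545 to 0.235 FPKM in DUSP6 KO and 0.0091 to 0.0531 in WT (1 to 29 reads). Its groups did not overlap but nearly met, at 0.0545 and 0.0531 FPKM. Of the genes above the minimum, which did not include Rag1, 0.549% were higher in DUSP6 KO without overlap. Dntt, which adds bases at the joints, was at 1.51 ± 0.341 and 1.5 ± 0.369 FPKM. Ptcra, the pre-T-cell receptor chain of the thymus, had no read in any spleen.

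Marker lists gave the cellular context. The 12 T cell markers summed to 165.7 to 355.9 FPKM in DUSP6 KO and 206.1 to 304.8 in WT, 0 of 12 with an unadjusted limma p under 0.05. The 6 naive T cell genes summed to 167.3 to 308.4 and 191.8 to 312.5, 0 of 6 with such a p. Of the gamma-delta list 7 genes were in the table, with sums of 11.4 to 21.1 and 7.53 to 14.7 and 0 of 6 tested with such a p. The 5 NKT genes summed to 29.9 to 53.0 and 36.2 to 51.2. Of 6 NK cell genes, 1 had an unadjusted p under 0.05 and was lower, against 3.03% of all genes (Klra8, 4.04 ± 1.34 against 8.65 ± 2.46 FPKM, adjusted limma p 0.37), with sums of 14.1 to 24.7 and 17.8 to 36.0. B cell genes summed to 685.4 to 1349 and 777.5 to 1748, and erythroid genes to 20350 to 105676 and 24402 to 50067, each with 0 of 8 at such a p. The 8 neutrophil genes summed to 547.1 to 1890 in DUSP6 KO (WT 1053 to 4929). Of these, 7 of 8 had an unadjusted p under 0.05, lower in DUSP6 KO (3.03% of all genes tested were), with none at an adjusted p of 0.05 or less. No marker list had a gene at 0 in all spleens, and the part that these cells had in the V gene values was not tested.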

How the data were processed

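Whole-spleen RNA was poly-A selected and sequenced in pairs. The authors deposited a gene table in FPKM, made with HISAT2 and featureCounts 1.5.0-p3 per the labels and the study's methods. The labels name a human build, but all 144 members matched mouse GRCm38 coordinates of GENCODE M21. Whether counting used strand or reads matching several places is not given in the sources used here. Each FPKM value gave whole reads (100% within 0.001) when multiplied by gene length and the library's step. The library total implied by the deposited FPKM was 0.949 to 1.12 times the summed gene reads.

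Genes averaging 0.1 FPKM or more over the 10 libraries were tested with limma 3.58.1 (lmFit, eBayes with trend, R 4.3.3) on log2(FPKM + 0.1), with Benjamini-Hochberg adjustment over 21296 genes. In simulated data the test recovered 49 of 100 genes changed 2-fold and 100 of 100 changed 4-fold, with 12 false calls, at 20962 genes. The changed genes were drawn only from genes with more reads, so these rates do not cover V genes with few reads. The labels give each library an animal number within its group, and number 73 occurs in both groups. Chain sums, shares, evenness and copy shares were described by mean, SD and standard error, with no test. Alternatives changed the pseudocount, minimum, scaling, model, share unit, depth, families, pseudogenes, chain of the -dv genes and each spleen in turn. The V genes and gene lists (receptor complex, receptor signalling, V(D)J recombination, and markers of T, naive T, gamma-delta T, NKT, NK, B, erythroid cells and neutrophils) were chosen with earlier results of these data known. V genes named were the 3 most used of each chain, the lowest p of each chain, the 5 largest changes each way at an unadjusted p under 0.05, any past the adjusted threshold, and Trav11, Trav11d, Trav1, Trbv13-2, Trbv29, Trbv1 and Trbv19. Trav12-2, Trav8d-1, Trav9d-1, Trav7d-4, Tcrg-V3, Psmb5, Gm43305, Prss2 and the J genes were chosen after their values were seen. Scipy 1.17.1 gave intervals and exact tests. No columns of the authors' own comparisons were used.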

Additional observations from a re-analysis of the deposited data

Results flagged for a closer look

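In groups of 5 spleens, 111 sets of values were examined for 1 spleen lying far from the others. Chance gives about 1 in 20, or 5.55, for independent and normally spread values. Many of these sets are sparse counts and they share spleens, so the number found cannot be set against that rate. In all, 13 stood out. Of these, 6 rest on 1 to 6 reads in a group that was otherwise at 0: Trav11 in DUSP6 KO 21 (0.150 FPKM), Trav1 in DUSP6 KO 01 (0.124 FPKM) and in WT 73 (0.156 FPKM), Trbv23 in DUSP6 KO 03 (0.174 FPKM), and Tcrg-C3 in DUSP6 KO 73 (0.525 FPKM), with Tcrg-C3 in WT 77 (0.555 FPKM) alike. DUSP6 KO 03 stood above the other DUSP6 KO spleens for Trbv16 (12.1 FPKM, the next at 7.77), Trdv2-2 (2.58 FPKM, the next at 0.814) and Trav14-3 (1.57 FPKM, the next at 0.279). WT 67 stood above the other WT spleens for Trgv2 (1.81 FPKM, the next at 0.945) and Trdc (3.35 FPKM, the next at 1.39). DUSP6 KO 21 stood above the other DUSP6 KO spleens for Tcrg-C4 (9.29 FPKM, the next at 4.35) and below them for the share of the alpha signal from Trav genes without a letter (45.6%, the next at 62.8%).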

How the results depend on the processing

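Few V reads limit these results: single Trav, gamma and delta genes rest on few reads, 34 Trav genes have an identical copy, and no group lacked arthritis. No V gene had an adjusted p of 0.05 or less under any alternative, nor at 0.1 or less. The numbers at an unadjusted p under 0.05, 4 higher and 5 lower, became 2 higher with a pseudocount of 1, 0 higher and 1 lower of 25 V genes tested with a minimum mean of 1 FPKM (fewer genes tested), and 2 higher and 3 lower with limma voom (the cause was not tested). Over all alternatives that kept every spleen the numbers ran from 0 to 5 higher and from 1 to 7 lower. Leaving out each spleen gave 2 to 7 higher and 2 to 7 lower. Of 25 V genes named and fitted, 17 kept their direction under every alternative. The sizes were less stable, and the SE printed with each fold change does not cover this. With all spleens kept, log2 fold changes ran from 0.60 to 3.95 for Trav4-3, 0.50 to 2.99 for Trav15-1-dv6-1 and 0.40 to 3.42 for Trav11d. They ran from -3.81 to -0.84 for Trav14-3 and -2.18 to -1.13 for Trbv26. Trav14n-3 changed sign with a pseudocount of 1 (0.13), as did Trdv2-2 (0.0035). With each spleen left out, log2 fold changes ran from -0.77 to 0.57 for Trav14n-3, -0.20 to 0.085 for Trbv13-2, -0.16 to 0.13 for Trbv12-2, -0.068 to 0.65 for Trgv2, -0.45 to 0.084 for Trdv2-2, -0.34 to 0.68 for Trdv4, -0.21 to 0.13 for Trbv1 and -0.48 to 0.13 for Trbv19. Chain sums, evenness and shares moved by less than 1 SD between spleens under all alternatives, and the sign of the differences in Trav, gamma and delta evenness and of the Trbv sum was not stable. The share differences of 11 of 27 named V genes changed sign or reached 0 under an alternative (Tcrg-V1, Tcrg-V4, Trav1, Trav11, Trav3-3, Trav7-4, Trbv1, Trbv12-2, Trbv13-2, Trdv4 and Trdv5). The alternatives without Trav genes that have an identical copy, and the d shares from reads (8.35 percentage points), were chosen after seeing the data. No paired analysis was possible because the groups share only the animal number 73.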

Other observations

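The spleens with the largest d shares of Trav expression also differed at other places on chromosome 14. Psmb5, a proteasome subunit gene downstream of Trac, was at 73.1, 31.3, 78.6, 44.7 and 46.2 FPKM in DUSP6 KO 26, 21, 73, 01 and 03, and at 60.9 to 73.6 FPKM in WT. DUSP6 KO 21, 01 and 03, whose d shares were 44.3, 20.8 and 24.4%, had the lowest Psmb5 values and the lowest ratios of Trac to Trbc1 and Trbc2 (0.167, 0.255 and 0.293), and were the spleens with Trav11d reads. Gm43305, a predicted gene between Trac and Psmb5, was at 0.0513 FPKM in DUSP6 KO 21, 19.8, 3.81, 4.52 and 6.96 in DUSP6 KO 26, 73, 01 and 03, and 10.05 to 15.5 in WT. It was thus low also in DUSP6 KO 73, whose d share (10.7%) and Psmb5 were within or above the WT values. These spleens were picked after their values were seen, and what these values share was not tested.

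Of 70 J segments, the partners of the V genes, 67 were tested with limma, and 7 had an unadjusted p under 0.05 (2 higher and 5 lower in DUSP6 KO, where 5.66% of all genes had such a p), with 0 at an adjusted p of 0.05 or less. Of these, 3 picked after their values were seen follow. Traj18, which joins Trav11 in invariant NKT cells, had 6 reads in DUSP6 KO and 21 in WT (log2 fold change -2.73 ± 0.94, adjusted limma p 0.74). Traj31 had 35 and 5 reads (4.05 ± 1.06, adjusted p 0.46), and Trbj2-5 had 7 and 28 (-1.89 ± 0.43, adjusted p 0.34). The annotated J segments named are 49 to 66 bases long, and FPKM of so short a gene rests on few reads.

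Of the 126 V genes with a read, 17 had reads only in DUSP6 KO and 10 only in WT. Of the 100 V genes tested, 4 had reads only in DUSP6 KO (1.16% of all genes tested did) and 3 only in WT (1.28% did). The shares over all genes were not matched for read number, so they do not show an excess among these sparse V genes. The 4 were Trav11d with 13 reads, Tcrg-V6 and Trav9d-3 with 11 each and Trav3n-3 with 10. The 3 were Trav9n-4 with 12, Trav12n-3 with 10 and Tcrg-V3 with 7. Trav9n-3, whose last 250 bases are identical to those of Trav9d-3, had 3 reads in WT 65. V reads averaged 955.8 ± 259.4 (SD) per library in DUSP6 KO and 849.8 ± 172.1 in WT, and the groups overlapped. As a percentage of gene reads they were 0.00560 ± 0.00157 and 0.00511 ± 0.000806, also with overlap.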
